A study of Mus musculus with 23 samples.

Results

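The genes described here encode proteins of ribosome biogenesis and the nucleolus. They were taken as a list of 48 gene names. A gene counted as measured when an array probe set carried its name and no other, and the brightest such probe set on average stood for a gene with several. By this rule 47 of the 48 genes were measured, among 19937 genes in all, and Noc2l was not analysed here. Fbl, Wdr12 and Ddx18 had 2 such probe sets each, and the levels given for them are those of the brighter one alone. Where in the genome each probe set matches was not checked.

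Ribosomes are assembled mainly in the nucleolus, where RNA polymerase I transcribes the long precursor of the ribosomal RNAs. Box C/D and box H/ACA small nucleolar ribonucleoproteins (snoRNPs) methylate this RNA and convert uridines to pseudouridine, and large sets of processing factors cut it and fold it into the small and large subunits. Growing blood progenitors make ribosomes at a high rate, and MYC is a known activator of many of these genes.

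The study hybridised RNA of sorted mouse bone marrow cells to 23 Affymetrix arrays in 9 groups. It asked what the transcription factor C/EBPα, encoded by Cebpa, does in myeloid progenitors and in leukaemia driven by the fusion oncogene MLL-AF9. Values are the depositors' RMA log2 levels, so a difference of 1 is a 2-fold change. The number of arrays limits the precision.

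Knockout mice were Mx.1-Cre+ C/EBPa f/f, and control mice were Mx.1-Cre- C/EBPa f/f; both received poly I:C 3 times, which switches on Mx1-driven Cre wherever interferon acts and not in blood cells alone. Leukaemic granulocyte-macrophage progenitors (L-GMPs) came from irradiated mice that had received cells carrying the MSCV-MLL-AF9-IRES-GFP retrovirus together with congenic marrow; before infection the donor cells were cultured with 100 ng/ml mSCF, 100 ng/ml mTPO and 10 ng/ml mIL-3. Knockout L-GMPs were on 2 arrays from secondary recipients and 1 from the primary mouse, all derived from 1 leukaemia that arose after injection of vectors expressing IL-3 and GM-CSF. Control L-GMPs were on 2 secondary and 2 primary arrays. Common myeloid progenitors (CMPs, 3 arrays) and stem-cell-enriched KSL cells (2 arrays), both GFP+, came from knockout MLL-AF9 recipients without leukaemia. Untransplanted groups, taken 5 days after poly I:C, were knockout CMPs (4 arrays), control granulocyte-macrophage progenitors (GMPs, 3 arrays) and control CMPs (4 arrays). GFP+ sorting is given in the labels for the primary knockout L-GMPs and the MLL-AF9 KSLs and CMPs, and not for the other L-GMPs. No array batch was used here, so transplantation and array batch cannot be told apart.

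Cebpa itself separated the genotypes. Its level was 4.33 to 5.55 on the 12 knockout arrays and 7.19 to 7.96 on the 11 control arrays. Mpo, which encodes the granule enzyme myeloperoxidase, was at 9.74 to 12.56 on all L-GMP arrays, against 12.71 to 12.82 in GMPs. In the MLL-AF9 CMPs it was at 5.76 to 9.42, below the 12.39 to 12.59 of control CMPs. The labels do not say that replicates came from separate mice except for the MLL-AF9 KSLs and CMPs, so p-values measure variation among these samples, which may be technical.

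The genes that were lower in both control and knockout L-GMPs than in GMPs include all 4 core proteins of the box H/ACA particle (Dkc1, Gar1, Nhp2 and Nop10). Promoter sequence is shown for some of them because they moved together. RefSeq promoter windows (build GRCm38.p6) were matched for 41 of the 47 genes. The 100 bases before the start that the promoter table uses are printed 5′ to 3′ on the gene's strand for 8 of those genes, with capitals at every match, on either strand, to any of 15 searched motifs. That start is not always the end of the gene's full RefSeq span: the stretches of Nop56, Polr1b, Nop16 and Gar1 run 45, 26, 23 and 11 bases into it, and the other 4 lie outside it.
Dkc1 (chrX:75095754-75095853, plus): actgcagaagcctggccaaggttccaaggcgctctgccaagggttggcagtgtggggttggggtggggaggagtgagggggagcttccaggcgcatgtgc
Gar1 (chr3:129831397-129831496, minus): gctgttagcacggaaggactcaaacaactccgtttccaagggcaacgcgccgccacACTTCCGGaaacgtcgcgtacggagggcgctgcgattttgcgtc
Nhp2 (chr11:51619673-51619772, plus): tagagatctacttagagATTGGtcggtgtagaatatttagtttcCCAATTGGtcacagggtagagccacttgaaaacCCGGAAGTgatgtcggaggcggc
Nop10 (chr2:112261826-112261925, plus): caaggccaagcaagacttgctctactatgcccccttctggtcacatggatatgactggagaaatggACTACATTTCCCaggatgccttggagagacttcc
Nop16 (chr13:54590075-54590174, minus): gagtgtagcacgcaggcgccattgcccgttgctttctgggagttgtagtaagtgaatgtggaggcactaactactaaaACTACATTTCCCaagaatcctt
Nop56 (chr2:130274312-130274411, plus): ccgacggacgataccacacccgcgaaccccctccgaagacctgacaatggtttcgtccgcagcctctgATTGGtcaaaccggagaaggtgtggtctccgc
Polr1b (chr2:129100896-129100995, plus): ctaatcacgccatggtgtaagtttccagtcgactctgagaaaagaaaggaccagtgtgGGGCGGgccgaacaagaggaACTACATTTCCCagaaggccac
Rrp9 (chr9:106477209-106477308, plus): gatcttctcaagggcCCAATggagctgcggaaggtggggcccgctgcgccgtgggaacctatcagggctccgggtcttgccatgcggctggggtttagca

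All 15 motifs were chosen after the data had been seen, none was tested, and 2 windows were searched on both strands: the 250 bases before that start, and 300 bases that also take in the 50 bases after it. In the 250 bases, the E-box CACGTG, which MYC with MAX can bind, was in 7.32% of the 41 promoters, against 6.05% of 27025 RefSeq promoters. In the 300 bases it was in 24.4%, against 7.24%, so its excess over all promoters depends on the window. CACGCG moved likewise, with 12.2% against 7.74% in the 250 bases and 31.7% against 9.36% in the 300 bases. The ETS-type motif CCGGAAGT was in 14.6% against 2.93% in the 250 bases and in 24.4% against 4% in the 300 bases. The GC box GGGCGG was in 65.9% against 32.9%, and in 78% against 35.9%. The 27025 promoters were not matched to these genes by expression or base composition. Whether any difference in motif share goes with either was not tested.

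A ZNF143-type motif with 1 free base was in the 250 bases of Nop10, Nop16 and Polr1b alone, which is 7.32% against 0.94% of all promoters (7.32% against 1.03% in the 300 bases); its matches are the run ACTACATTTCCC printed above, and its form without the free base, which overlaps it, was in none of the 41. The other motifs in the 250 bases were CCAAT at 31.7% against 34.5%, TATAAA at 4.88% against 13%, and CACGTGA, which contains the E-box, at 7.32% against 3.15%. TGACGTCA was in 2.44% against 1.62%, and AAGATGGCG in 2.44% against 0.607%. An NRF1-type palindrome with 1 free base was in 4.88% against 3.86% in the 250 bases and in 17.1% against 4.78% in the 300 bases. In the 300 bases CCAAT was in 36.6% against 37.9%, TATAAA in 4.88% against 14.2%, CACGTGA in 9.76% against 3.84%, TGACGTCA in 2.44% against 1.88% and AAGATGGCG in 2.44% against 1.49%. The NRF1-type palindrome without the free base, a longer YY1-type form that contains AAGATGGCG, and a palindrome around CGCG were in none of the 41 in either window. These matches describe letters in a window and not binding.

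The 47 genes were all well above the floor of the values (3), with mean levels of 6.19 to 11.06, and they varied together across the arrays. Over the 23 arrays the mean correlation between pairs of them was 0.48, against 0.01 for 11702 genes with a mean level of at least 5. These arrays share their groups, so the figure is a description. Dkc1, the pseudouridine synthase of the H/ACA particle, and Polr1b, the second-largest subunit of RNA polymerase I, followed the mean of the other genes most closely (r = 0.96 and 0.95). Rrs1, a large-subunit assembly factor, was the 1 gene with a negative correlation (r = -0.23).

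Each gene was set against its own mean over the 23 arrays, and the median over the 47 genes was taken on each array. This median was -0.26 and -0.58 in secondary knockout L-GMPs and -0.26 in primary knockout L-GMPs. It was -0.40 and -0.16 in secondary control L-GMPs, and -0.06 and -0.26 in primary control L-GMPs. All 7 L-GMP arrays were therefore below 0.
The MLL-AF9 CMPs were at 0.13, 0.28 and 0.14, and the MLL-AF9 KSLs at -0.41 and 0.09. Knockout CMPs were at -0.05, -0.05, 0.07 and 0.15, control GMPs at 0.08, 0.15 and 0.18, and control CMPs at 0.26, 0.33, 0.27 and 0.38. The 2 MLL-AF9 KSL arrays lay far apart, and all 4 control CMP arrays lay above every array of the other groups except the second MLL-AF9 CMP array. Of the 47 genes, 24 had their highest group mean in control CMPs and 11 in MLL-AF9 CMPs, and 21 had their lowest in secondary knockout L-GMPs.

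**Figure D1:**
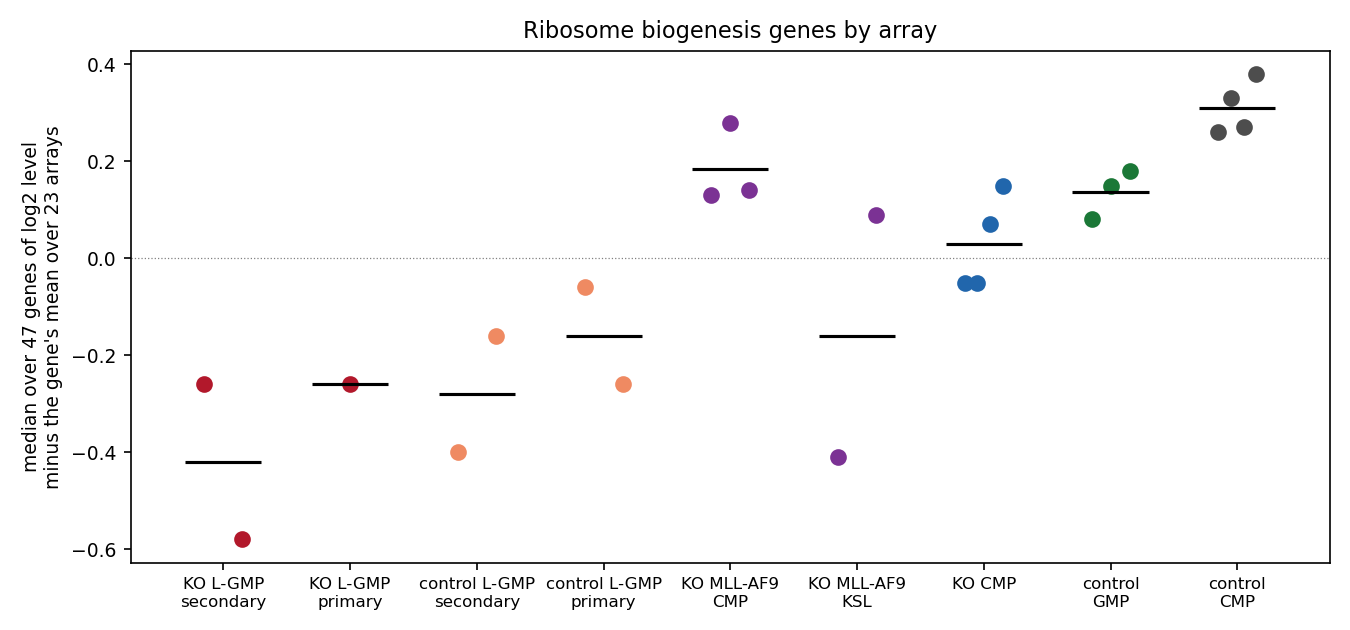
Median over the 47 genes of the log2 level minus each gene's mean over 23 arrays (vertical axis), by group (horizontal axis); points are arrays and bars are group means. All 7 L-GMP arrays lie below 0 and all control CMP and GMP arrays lie above it.

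**Figure D2:**
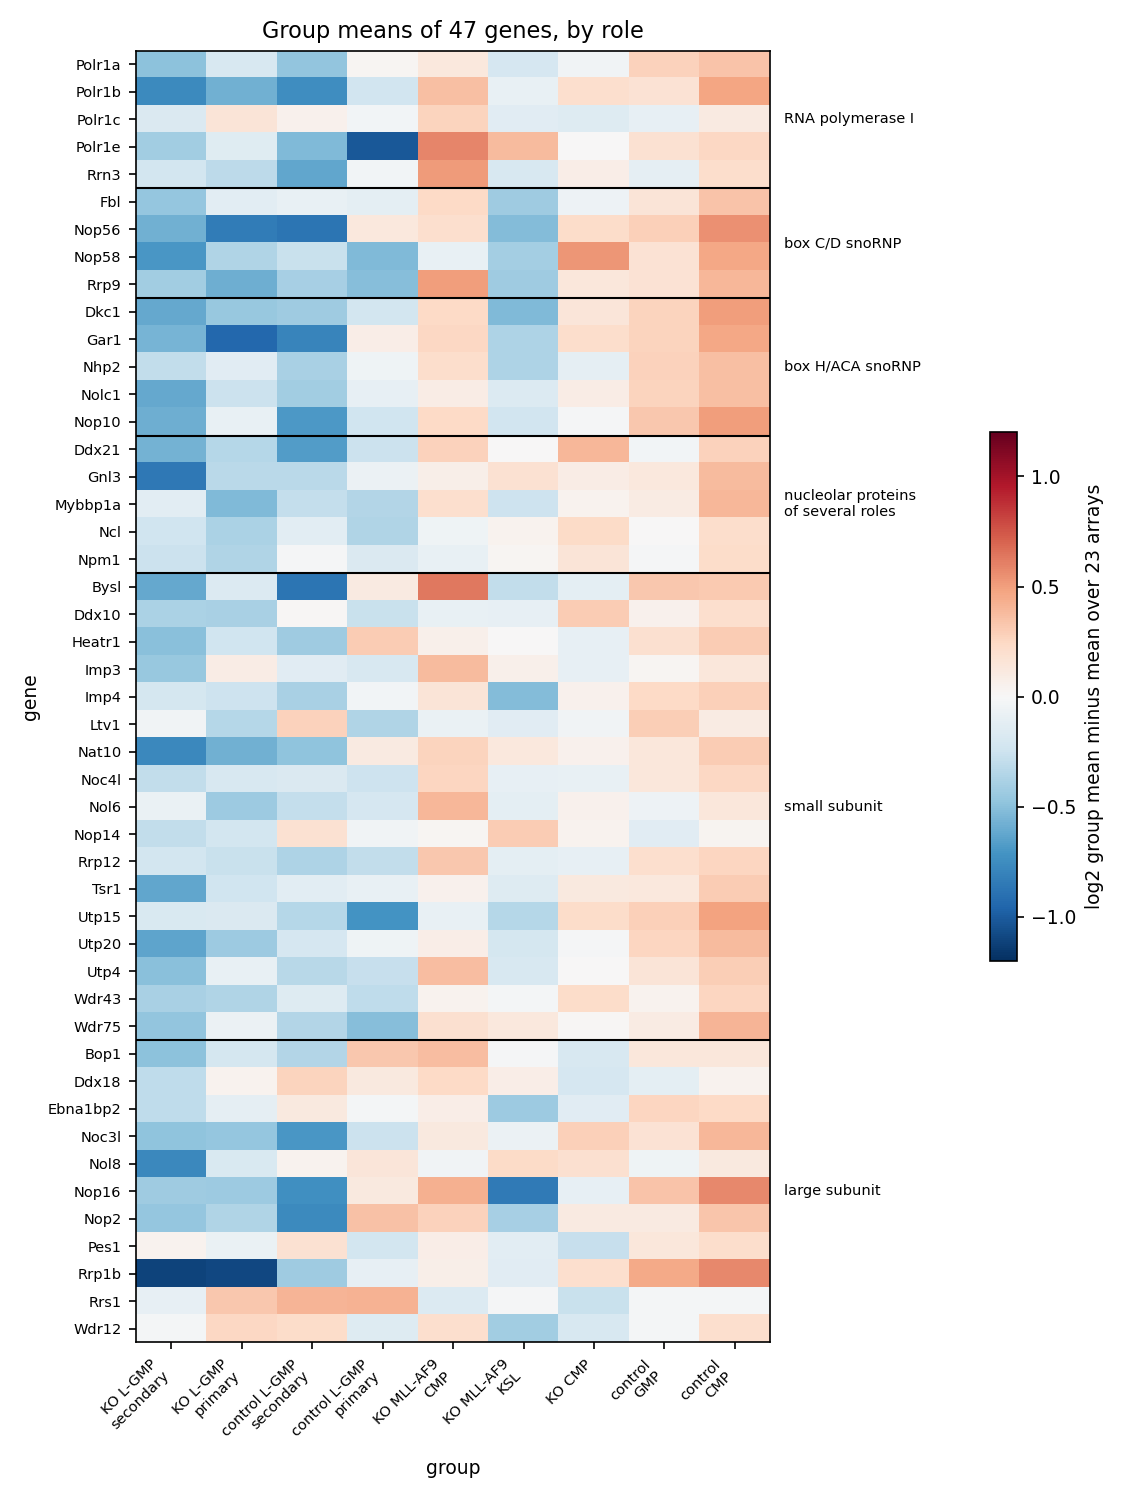
Group means of the 47 genes (rows, ordered by role) as the log2 difference from each gene's mean over 23 arrays (colour scale), by group (columns). Blue cells gather in the 4 L-GMP columns, and 24 genes have their highest mean in control CMPs.

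The first comparison asked what loss of C/EBPα does in CMPs without leukaemia. Ribosome biogenesis genes were mostly lower in knockout CMPs, by modest amounts: the median change was -0.26, against 0.0 over all genes, and 41 of the 47 estimates were below 0. By limma, with Benjamini-Hochberg adjustment over all 19937 genes and a threshold of 0.05, 4 genes fell and none rose. Over all genes 2.64% fell and 2.27% rose. The arrays of the groups did not overlap, with knockout lower, for 24 genes (51.1%), against 11.3% of all genes, and with knockout higher for none, against 9.86%.

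Nop16, which helps assemble the large subunit, was at 7.83, 7.95, 8.13 and 8.21 in knockout CMPs, against 8.56, 8.75, 8.65 and 8.89 in control CMPs. All knockout arrays were lower than all control arrays, with a change of -0.68 ± 0.15 (SE, limma adjusted p = 0.0127). Nop10, a small H/ACA core protein, was at 10.05, 10.08, 10.14 and 10.20 in knockout CMPs, against 10.47, 10.58, 10.90 and 10.56 in control CMPs. Again no arrays overlapped (-0.51 ± 0.11, limma adjusted p = 0.0142). Its partner Nhp2 changed by -0.47 ± 0.12 (limma adjusted p = 0.0367).

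Fbl encodes fibrillarin, the methyltransferase of the box C/D particle. It was at 10.05, 10.25, 10.41 and 10.41 in knockout CMPs, against 10.59, 10.64, 10.71 and 10.77 in control CMPs. The 2 sets of arrays did not overlap, and the change was -0.40 ± 0.10 (limma adjusted p = 0.0225). The abundant nucleolar proteins nucleolin and nucleophosmin did not pass: Ncl changed by 0.01 ± 0.09 (limma adjusted p = 1) and Npm1 by -0.07 ± 0.11 (limma adjusted p = 0.941). By role, 2 of 5 H/ACA genes, 1 of 4 C/D genes and 1 of 11 large-subunit genes fell, and no gene of RNA polymerase I or the small subunit did.

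Knockout CMPs and control CMPs were among the least variable groups: the median residual size was 0.0745 and 0.0762, against 0.161 in MLL-AF9 CMPs. Pooling the spread over all groups therefore widens the error here, and 20 genes fell with array weights and 21 in a fit of these arrays alone, each set including the same 4. Without knockout CMP array 1 none passed, without knockout CMP array 2 there were 2, and without control CMP array 3 or array 4 there was 1.
Myc was 10.56 to 10.82 in knockout CMPs and 10.95 to 11.40 in control CMPs (-0.52 ± 0.23, limma adjusted p = 0.265). Mycn rose by 1.22 ± 0.20 (limma adjusted p = 0.00166). Markers of other cell types were lower too, with 8 of 14 granulocyte-monocyte progenitor genes, 4 of 9 monocyte and macrophage genes and 2 of 9 mast cell, basophil and eosinophil genes called, and so were 2 of 19 proliferation genes. Their part in the result was not tested. Whether the cell mix or less RNA per cell underlies any difference in these bulk samples cannot be told apart.

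Control GMPs were compared with control CMPs to follow normal maturation. Estimates were below 0 for 43 of the 47 genes, with a median change of -0.17, but none passed limma's adjusted threshold, while 0.331% of all genes fell and 0.717% rose. At an unadjusted p under 0.05 there were 2 genes, and 1 passed with array weights and 3 in a fit of these groups alone. Arrays did not overlap, with GMPs lower, for 13 genes (27.7%), against 7.97% of all genes, and with GMPs higher for 1 (2.13%), against 8.34%. Ddx21, a nucleolar RNA helicase, was at 8.70, 8.72 and 8.52 in GMPs, against 8.86, 9.14, 8.81 and 9.05 in CMPs. All GMP arrays were lower (-0.32 ± 0.14, limma adjusted p = 0.601). Ncl changed by -0.21 ± 0.10 (limma adjusted p = 0.601), Npm1 by -0.23 ± 0.12 (limma adjusted p = 0.719) and Fbl by -0.19 ± 0.10 (limma adjusted p = 0.752). Erythroid markers were lower in GMPs too (4 of 9 called, median -1.83), and their part was not tested.

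Leukaemic L-GMPs were next set against the normal GMPs they resemble. The L-GMPs had also been through culture, retroviral infection and transplantation into irradiated mice. The GMPs were untransplanted and taken 5 days after poly I:C. Knockout L-GMPs differ from them in genotype too, and arose after injection of vectors expressing IL-3 and GM-CSF. Leukaemia cannot be told apart from these differences. Primary and secondary groups had equal weight in each contrast, and the control and knockout comparisons share the same 3 GMP arrays, so they are not independent. In control L-GMPs 17 of 47 genes fell and none rose (limma, adjusted threshold as above). Over all genes 14.7% fell and 10.6% rose. In knockout L-GMPs 19 fell and none rose, while 6.49% of all genes fell and 3.89% rose. The median change of the 47 genes was -0.35 for control cells and -0.47 for knockout cells, against -0.02 and -0.01 over all genes. Arrays lay entirely below the GMP arrays for 25 genes in the control comparison (53.2%, against 17.7% of all genes) and for 39 in the knockout comparison (83%, against 20.8%), and entirely above them for 1 (2.13%, against 13.1%) and for none (against 16.5%).

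All 5 genes of the box H/ACA role fell in both comparisons. In control L-GMPs Dkc1 was not called with array weights, and Gar1 and Nolc1 were not called in a fit of the compared groups alone. In knockout L-GMPs a fit of the compared groups alone did not call Dkc1. Because primary and secondary groups had equal weight, a change can differ slightly from the difference of the array means. Gar1, a core protein, was at 7.67 and 7.58 in secondary and 7.24 in primary knockout L-GMPs, at 7.73 and 7.04 in secondary and 8.19 and 8.33 in primary control L-GMPs, against 8.35, 8.49 and 8.51 in GMPs. Every L-GMP array was below every GMP array, with the primary control arrays nearest to them. Gar1 changed by -1.02 ± 0.15 in knockout L-GMPs (limma adjusted p = 0.000399) and by -0.63 ± 0.13 in control L-GMPs (limma adjusted p = 0.00384).
Nop10 was at 9.48 and 9.59 in secondary and 10.04 in primary knockout L-GMPs, at 9.41 and 9.46 in secondary and 10.06 and 9.72 in primary control L-GMPs, against 10.31, 10.51 and 10.52 in GMPs. No L-GMP array reached a GMP array. The changes were -0.66 ± 0.13 in knockout L-GMPs (limma adjusted p = 0.0049) and -0.79 ± 0.12 in control L-GMPs (limma adjusted p = 0.000523). Dkc1, Nhp2 and Nolc1, a chaperone of snoRNPs, changed by -0.80, -0.50 and -0.71 in knockout and by -0.59, -0.50 and -0.54 in control L-GMPs. Of the stretches printed above, those of Gar1 and Nhp2 hold the ETS-type motif.

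Of the box C/D genes, Nop56 and Rrp9 fell in both comparisons. Nop56, a core scaffold protein, was at 8.98 and 8.42 in secondary and 8.44 in primary knockout L-GMPs, at 8.34 and 8.45 in secondary and 9.37 and 9.45 in primary control L-GMPs, against 9.47, 9.56 and 9.67 in GMPs. The primary control arrays were just below the GMPs and the other 5 arrays well below them. Nop56 changed by -1.0 ± 0.24 in knockout L-GMPs (limma adjusted p = 0.0142) and by -0.67 ± 0.22 in control L-GMPs (limma adjusted p = 0.0356). Rrp9, the U3-specific protein, was 5.60 to 5.78 in knockout L-GMPs and 5.51 to 5.89 in control L-GMPs, against 6.30 to 6.42 in GMPs. Fbl fell in knockout L-GMPs (-0.44 ± 0.11, limma adjusted p = 0.0203) and changed by -0.25 ± 0.10 in control L-GMPs (limma adjusted p = 0.0867).

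In the RNA polymerase I group, Polr1b fell in both comparisons. It was at 6.37 and 5.84 in secondary and 6.28 in primary knockout L-GMPs, at 5.95 and 6.27 in secondary and 6.72 and 6.55 in primary control L-GMPs, against 6.93, 7.14 and 7.02 in GMPs. All L-GMP arrays were lower than all GMP arrays. The changes were -0.84 ± 0.17 in knockout (limma adjusted p = 0.0054) and -0.66 ± 0.16 in control L-GMPs (limma adjusted p = 0.00747). Polr1e, another subunit, fell in control L-GMPs, where it was at 5.41 and 6.21 in secondary and 5.33 and 5.31 in primary arrays, against 6.50, 6.45 and 6.60 in GMPs (-0.95 ± 0.32, limma adjusted p = 0.041).

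Small-subunit factors followed, with 6 of 17 called in knockout and 5 in control L-GMPs. Nat10, an RNA acetyltransferase, was at 6.84 and 6.39 in secondary and 6.81 in primary knockout L-GMPs, against 7.40, 7.73 and 7.48 in GMPs. The arrays did not overlap (-0.82 ± 0.19, limma adjusted p = 0.0123). Utp15, of the early processing complex, was at 6.90 and 7.28 in secondary and 7.10 and 6.32 in primary control L-GMPs, against 7.71, 7.63 and 7.83 in GMPs (-0.82 ± 0.16, limma adjusted p = 0.0029). The second primary array was the lowest. Bysl changed by -0.70 ± 0.18 in knockout (limma adjusted p = 0.0177) and by -0.70 ± 0.16 in control L-GMPs (limma adjusted p = 0.00578), and in the control comparison its arrays overlapped.

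Among large-subunit genes, 3 of 11 fell in knockout and 2 in control L-GMPs. Rrp1b was at 6.62 and 5.75 in secondary and 6.20 in primary knockout L-GMPs, against 7.76, 7.76 and 7.71 in GMPs. Every knockout array was over 1 log2 unit lower, with a change of -1.55 ± 0.28 (limma adjusted p = 0.00262). Ncl changed by -0.31 ± 0.11 in knockout (limma adjusted p = 0.0732) and by -0.25 ± 0.10 in control L-GMPs (limma adjusted p = 0.0705). Npm1 changed by -0.30 ± 0.13 (limma adjusted p = 0.176) and -0.07 ± 0.12 (limma adjusted p = 0.692).

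The 11 genes called lower in both comparisons were Bysl, Dkc1, Gar1, Imp4, Nhp2, Nolc1, Nop10, Nop16, Nop56, Polr1b and Rrp9. The share of all genes called lower in both was not counted, and the shared GMP arrays favour joint calls for any gene. In the control comparison array weights gave 19 calls, 15 of them among the 17 above. A fit of the compared groups alone gave 13, with 10 of them among the 17. The knockout arrays come from 1 leukaemia. Averaged to 1 sample they gave 4 calls (Gar1, Rrp1b, Polr1b and Nop10), the primary array alone gave 2, and array weights gave 35. It gave 10 calls without secondary array 2 or without GMP array 2 or 3. The control comparison gave 8 calls with primary arrays alone, 8 to 11 without any 1 GMP array, and 10 without primary array 2 or secondary array 1.

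The other genes of the pathway were counted in the same comparisons. Over all genes 6.49% fell and 3.89% rose in knockout L-GMPs, and 14.7% fell and 10.6% rose in control L-GMPs. Of 39 further small-subunit processing factors, 3 fell and 1 rose in knockout L-GMPs (median -0.23), and 5 fell and 1 rose in control L-GMPs (median -0.15). The numbers of these that fell are close to the shares of all genes that fell. Of 41 further large-subunit factors, 9 fell in knockout L-GMPs (median -0.27), and 11 fell and 3 rose in control L-GMPs (median -0.27). Of 16 further genes of RNA polymerase I and its initiation, 4 fell and 1 rose in knockout L-GMPs (median -0.26), and 3 fell in control L-GMPs (median -0.12). All 12 further genes of snoRNP assembly and modification had estimates below 0 in both comparisons, with none called in knockout L-GMPs (median -0.32) and 4 lower in control L-GMPs (median -0.33). Of 13 RNA exosome genes, 2 fell in knockout L-GMPs (median -0.22) and 4 in control L-GMPs (median -0.26). The median change of 61 ribosomal protein genes was -0.05 in knockout L-GMPs, where 6 fell, and -0.02 in control L-GMPs, where 13 fell and 6 rose.

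Proliferation genes and Myc were lower in the same comparisons, and their part in the result was not tested. Of 19 proliferation genes, 11 fell in knockout L-GMPs (median -0.72) and 17 in control L-GMPs (median -0.85). Their median level per array was 7.62 to 8.46 in knockout L-GMPs and 7.85 to 8.40 in control L-GMPs, against 8.95 to 9.02 in GMPs. Myc fell by 1.36 ± 0.27 in knockout L-GMPs (limma adjusted p = 0.00422) and by 1.17 ± 0.24 in control L-GMPs (limma adjusted p = 0.00346). The 12 genes of the MYC network, Myc among them, did not move as a set. In knockout L-GMPs 2 of them fell and 0 rose (median 0.12). In control L-GMPs 5 fell and 2 rose (median -0.08).

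Markers of other cell types moved in the same comparisons, and their part in the result was not tested. Of 9 mast cell, basophil and eosinophil genes, 4 fell in knockout L-GMPs (median -2.97) and 3 in control L-GMPs (median -2.22). Their median level per array was 4.69 to 5.73 in knockout L-GMPs and 5.53 to 7.75 in control L-GMPs, against 7.82 to 8.72 in GMPs. Of 14 granulocyte-monocyte progenitor genes, 3 fell in knockout and 6 in control L-GMPs. Of 10 mature neutrophil genes 2 fell in each, and of 9 monocyte and macrophage genes 2 fell in each and 1 rose in control L-GMPs. Of 9 lymphocyte genes, 1 rose in knockout and 4 in control L-GMPs. Of 10 genes on the stem cell list, 4 rose in knockout L-GMPs (Mecom, Meis1, Hoxa9 and Hoxb5) and 1 in control L-GMPs (Hoxa9). The others on that list were not called in either comparison.

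**Figure D3:**
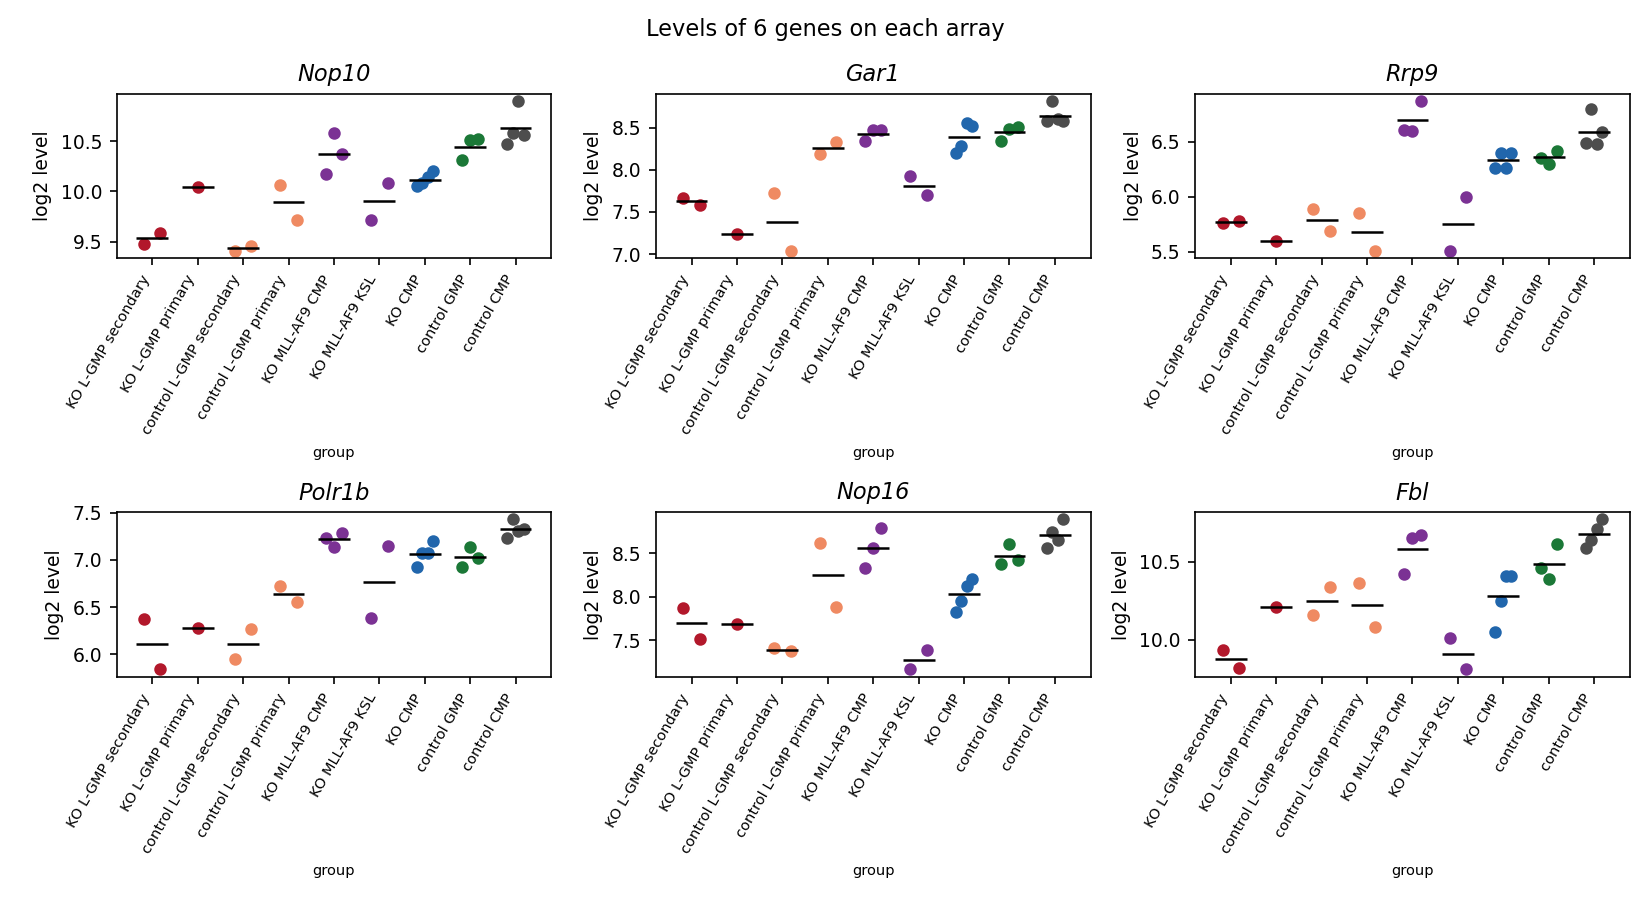
Log2 level (vertical axis) of Nop10, Gar1, Rrp9, Polr1b, Nop16 and Fbl on each array, by group (horizontal axis); points are arrays and bars are group means. For Nop10, Gar1, Rrp9, Polr1b and Fbl all L-GMP arrays lie below all GMP arrays, and for Nop16 1 primary control L-GMP array does not.

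Knockout L-GMPs were compared with control L-GMPs to ask whether a leukaemia without C/EBPα differs. All knockout arrays derive from 1 leukaemia, which arose after injection of vectors expressing IL-3 and GM-CSF. Genotype cannot be told apart from that leukaemia or those vectors, and the p-values do not measure variation between knockout leukaemias. None of the 47 genes passed limma's adjusted threshold, while 1.16% of all genes fell and 2.1% rose, and 9 had an unadjusted p under 0.05. The median change was -0.14. Rrp1b was at 6.62, 5.75 and 6.20 in knockout L-GMPs, against 6.56 and 7.15 in secondary and 7.23 and 7.15 in primary control L-GMPs. One knockout array overlapped the controls (-0.83 ± 0.27, limma adjusted p = 0.106). Gar1 changed by -0.39 ± 0.14 (limma adjusted p = 0.141), but by 0.24 between the secondary groups alone, Fbl by -0.19 ± 0.11 (limma adjusted p = 0.339), Npm1 by -0.22 ± 0.12 (limma adjusted p = 0.343) and Ncl by -0.07 ± 0.10 (limma adjusted p = 0.784). Arrays lay apart, with knockout lower, for 3 genes (6.38%), against 6.76% of all genes, and with knockout higher for none, against 7.15%. Without the primary knockout array 3 genes passed, without primary control array 1 there were 2, and without secondary control array 2 there was 1.

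The knockout effect in L-GMPs minus that in CMPs was tested as an interaction, with the same limit of 1 knockout leukaemia. None of the 47 genes passed, while 2.02% of all genes were higher and 0.782% lower. Without adjustment 7 had p under 0.05. Nop10 came nearest (0.63 ± 0.17, limma adjusted p = 0.0573), followed by Utp15 (0.61 ± 0.23, limma adjusted p = 0.182). Array weights gave 2 calls, a fit of these groups alone gave 3, and leaving out primary control L-GMP array 1 gave 4. The interaction was 0.20 ± 0.14 for Fbl (limma adjusted p = 0.514), -0.08 ± 0.13 for Ncl (limma adjusted p = 0.823) and -0.15 ± 0.16 for Npm1 (limma adjusted p = 0.696).

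L-GMPs were also set against the MLL-AF9 KSLs and CMPs that had not become leukaemic, with the 2 progenitor groups at equal weight. These progenitors are all Cebpa knockouts, so control L-GMPs differ from them in genotype as well as in leukaemia. Control and knockout L-GMPs also differ from them in sorted cell type, and some of their arrays come from secondary recipients. The knockout L-GMPs come from 1 leukaemia that arose after injection of vectors expressing IL-3 and GM-CSF. All these differences cannot be told apart. Cebpa itself changed by 2.74 ± 0.16 in control L-GMPs (limma adjusted p = 2.24e-08) and by 0.02 ± 0.18 in knockout L-GMPs (limma adjusted p = 0.978). In knockout L-GMPs 12 of 47 genes fell and none rose, while 5.93% of all genes fell and 7.27% rose. In control L-GMPs 7 fell and none rose, while 10.5% fell and 8.51% rose. Both comparisons share the progenitor arrays. Arrays lay entirely below the progenitors for 8 genes in the knockout comparison (17%, against 6.01% of all genes) and for none in the control comparison (against 4.43%), and entirely above them for none in either (against 6.61% and 3.3%).

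Nat10 was at 6.84, 6.39 and 6.81 in knockout L-GMPs, against 7.59, 7.98 and 7.41 in MLL-AF9 CMPs and 7.45 and 7.60 in MLL-AF9 KSLs. The groups did not overlap (-0.87 ± 0.17, limma adjusted p = 0.00276). Polr1b fell by 0.80 ± 0.16 in knockout L-GMPs (limma adjusted p = 0.00226), without overlap, and by 0.62 ± 0.14 in control L-GMPs (limma adjusted p = 0.0049), with overlap. Rrp1b (-1.06 ± 0.26), Gnl3, the nucleolar GTPase nucleostemin (-0.71 ± 0.19), and Gar1 (-0.69 ± 0.13) also fell in knockout L-GMPs, and Ncl fell by 0.30 ± 0.10 (limma adjusted p = 0.048).

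In control L-GMPs, Polr1e changed by -1.26 ± 0.29 (limma adjusted p = 0.00558), Ddx21 by -0.61 ± 0.13 (limma adjusted p = 0.00341) and Wdr75 by -0.59 ± 0.15 (limma adjusted p = 0.012). The arrays overlapped for all 7 called genes. Bysl also fell, by 0.55 ± 0.14 (limma adjusted p = 0.012). Ncl changed by -0.24 ± 0.09 (limma adjusted p = 0.0633), and Fbl and Npm1 by -0.01 ± 0.09 and -0.05 ± 0.11. Against KSLs alone the Fbl change was 0.33 in control and 0.14 in knockout L-GMPs. In knockout L-GMPs Fbl changed by -0.20 ± 0.10 (limma adjusted p = 0.24) and Npm1 by -0.27 ± 0.12 (limma adjusted p = 0.155).

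These counts turned on the progenitor group and on single arrays. With MLL-AF9 CMPs alone 21 genes were called in knockout and 20 in control L-GMPs; with KSLs alone 3 were called in knockout L-GMPs, and 1, which was higher, in control L-GMPs. Without KSL array 1 the counts were 26 and 22. Leaving out the primary knockout array gave 19, secondary knockout array 2 gave 5 and KSL array 2 gave 7 in the knockout comparison, leaving out primary control array 1 gave 11 in the control comparison, and in fits of the compared groups alone both were 0. Erythroid markers were lower in L-GMPs (6 of 9 called in knockout, 7 in control) and granulocyte-monocyte progenitor markers higher (13 of 14 in each), and their part in these changes was not tested.

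MLL-AF9 was compared with no MLL-AF9 in knockout CMPs. The MLL-AF9 CMPs had also been through culture, retroviral infection, transplantation into irradiated mice and GFP+ sorting. The knockout CMPs without it were untransplanted and taken 5 days after poly I:C. The oncogene cannot be told apart from these differences. Here 3 of 47 genes rose and none fell, while 1.51% of all genes rose and 3.36% fell. Bysl, needed for small-subunit maturation, was at 7.23, 7.27 and 7.52 in MLL-AF9 CMPs, against 6.60, 6.49, 6.51 and 6.76 in knockout CMPs without it. The arrays did not overlap (0.75 ± 0.16, limma adjusted p = 0.0143). Polr1c, a subunit of RNA polymerases I and III, rose by 0.42 ± 0.10 (limma adjusted p = 0.0247), and the helicase gene Ddx18 by 0.44 ± 0.11 (limma adjusted p = 0.0404). Fbl changed by 0.30 ± 0.10 (limma adjusted p = 0.115), Ncl by -0.28 ± 0.10 (limma adjusted p = 0.119) and Npm1 by -0.24 ± 0.12 (limma adjusted p = 0.286). Arrays did not overlap, with MLL-AF9 higher, for 16 genes (34%), against 6.93% of all genes, and with MLL-AF9 lower for 4 (8.51%), against 9.4%. With array weights none of the 3 passed, in a fit of these groups alone Bysl alone of the 3 did, and 1 gene passed without MLL-AF9 CMP array 1 or without knockout CMP array 1 or 3. Of 14 granulocyte-monocyte progenitor genes 6 were lower with MLL-AF9 (median -0.71), and of 19 proliferation genes 18 had estimates below 0 and 3 fell (median -0.32). Their part in the result was not tested.

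Within MLL-AF9 recipients, CMPs were compared with KSLs. Of 10 genes on the stem cell list 0 were called, and their median change was 0.38, higher in CMPs. The median level of 9 mast cell, basophil and eosinophil genes was 4.79 to 9.95 over the CMP arrays and 5.41 to 9.63 over the KSL arrays. The part of the cell mix was not tested. In CMPs 6 of 47 genes rose and none fell, while 2.02% of all genes rose and 1.3% fell. Nop16 was at 8.33, 8.56 and 8.79 in CMPs, against 7.17 and 7.39 in KSLs. The groups were far apart (1.28 ± 0.19, limma adjusted p = 0.00287). Rrp9 was at 6.61, 6.60 and 6.87 in CMPs, against 5.51 and 6.0 in KSLs (0.93 ± 0.15, limma adjusted p = 0.00404). Fbl was at 10.42, 10.65 and 10.67 in CMPs, against 10.01 and 9.81 in KSLs (0.67 ± 0.12, limma adjusted p = 0.009). Bysl rose by 0.93 ± 0.19, Imp4, a U3 particle protein, by 0.67 ± 0.12, and Gar1 by 0.62 ± 0.16. Ncl and Npm1 changed by -0.08 ± 0.12 and -0.11 ± 0.14.

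CMPs and KSLs of 2 recipients came from the same mice, and with the mouse as a block 13 genes rose, including the same 6. Arrays did not overlap, with CMPs higher, for 15 genes (31.9%), against 10.9% of all genes, and with CMPs lower for 1 (2.13%), against 8.5%. With array weights or these groups alone none passed, and without KSL array 2 there were 23. Without KSL array 1 the median change was 0.05, against 0.32 with it. Proliferation genes were higher in CMPs too (4 of 19 called, median 0.46), and their part was not tested.

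Secondary control L-GMPs were compared with primary ones, 2 arrays each. In secondary L-GMPs 6 of 47 genes fell and none rose, while 3.67% of all genes fell and 4.04% rose. The median change of the 47 genes was -0.07, and 20 of the estimates were above 0. Nop2, an rRNA methyltransferase, was at 6.69 and 6.66 in secondary L-GMPs, against 7.70 and 7.88 in primary L-GMPs. The arrays were far apart (-1.11 ± 0.20, limma adjusted p = 0.00505). Nop56 (-1.01 ± 0.29), Bysl (-0.99 ± 0.21), Gar1 (-0.87 ± 0.17), Nop16 (-0.86 ± 0.21) and Heatr1, an early processing factor (-0.73 ± 0.17), fell as well. Fbl, Npm1 and Ncl changed by 0.03 ± 0.14, 0.16 ± 0.16 and 0.23 ± 0.13. Arrays did not overlap, with secondary lower, for 17 genes (36.2%), against 22.6% of all genes, and with secondary higher for 7 (14.9%), against 18.9%. With array weights or these arrays alone none passed, and without secondary array 1 or 2 there were 2 or 3. Other genes of the pathway went both ways. Of 39 further small-subunit processing factors 7 rose and 1 fell (median 0.29). Of 13 RNA exosome genes 4 rose and 0 fell (median 0.5). Of 41 further large-subunit factors 2 rose and 1 fell (median 0.09). Of 16 further genes of RNA polymerase I and its initiation 3 fell and 0 rose (median -0.22). Myc fell by 1.19 ± 0.32 (limma adjusted p = 0.0329), and of 12 MYC network genes 3 fell (median -0.19).

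**Figure D4:**
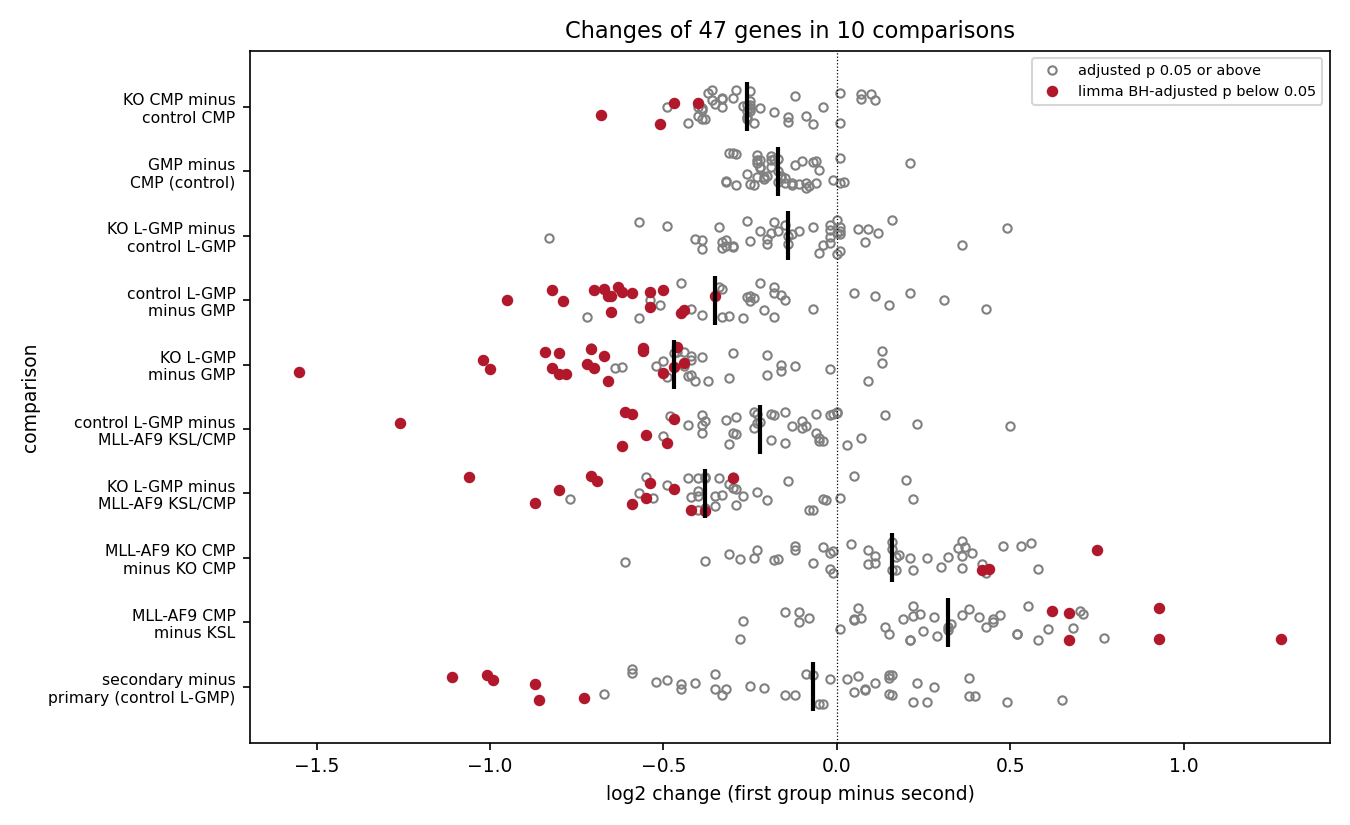
Log2 change of each of the 47 genes (horizontal axis, first group minus second) in 10 comparisons (vertical axis); filled points passed limma's adjusted threshold and black bars are medians. The median is lowest, at -0.47, for knockout L-GMPs against GMPs.

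Over the comparisons, 30 of the 47 genes were called at least once. The same count over all genes was not made, so the 30 cannot be judged against it. In control L-GMPs against GMPs alone 14.7% of all genes fell and 10.6% rose. The 17 never called were Npm1, Nop58, Polr1a, Rrn3, Rrp12, Rrs1, Bop1, Pes1, Wdr12, Wdr43, Utp4, Nol6, Nol8, Ltv1, Ddx10, Mybbp1a and Imp3. They include the 3 proteins of the PeBoW complex of large-subunit assembly (Pes1, Bop1 and Wdr12). A gene that was not called is not thereby shown to be constant: Nop58 was 8.08 to 8.87 in knockout L-GMPs and 8.20 to 9.11 in control L-GMPs, against 9.33 to 9.37 in GMPs.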

How the data were processed

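RNA of sorted cells on 23 Affymetrix arrays was analysed from the value table the authors deposited, whose log2 values come from RMA, as the submitters' processing notes name it, with a floor at 3. RNA was amplified with a NuGen Ovation Pico WTA V2 kit, per the labels. Of 34760 probe sets, 21640 had 1 gene symbol, giving 19937 genes; no genes were filtered. Groups came from the sample labels. Group means were compared in limma 3.58.1 (R 4.3.3) over all 23 arrays with a trend in the prior variance, Benjamini-Hochberg adjustment over all genes and a threshold of 0.05. The fit was tested on simulated data. Primary and secondary L-GMPs, and MLL-AF9 KSLs and CMPs, had equal weight. Because spread differed between groups, fits with array weights and with the compared groups alone were run too. The labels pair MLL-AF9 KSLs and CMPs by mouse (deviations correlated at 0.44). In each comparison the text names Fbl, Ncl and Npm1, up to 5 genes called in each direction with the largest change, or, with none called, 2 with the lowest p; other genes illustrate counts. The genes and lists were chosen with earlier results of these data known. The 15 promoter motifs and both windows were chosen after the data had been seen.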

Additional observations from a re-analysis of the deposited data

Results flagged for a closer look

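Dixon's test for an outlying array was run on 46 groups of 4 or more values, of which chance marks about 1 in 20, and it marked 2. Gar1 was at 8.82 on control CMP array 2, against 8.58, 8.58 and 8.60 on the others. Utp15 was at 7.85 on control CMP array 1, against 7.92, 7.93 and 7.93 on the others.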

How the results depend on the processing

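Of the 1195 changes of named genes under the alternatives, 1014 kept their side of the threshold, 158 lost it and 23 gained it. The sign differed in 25 of them, none called in either setting, and these were Fbl, Ncl and Npm1 except for Gar1 between the secondary L-GMP genotypes (0.24). Without 1 array in turn, calls numbered 0 to 4 for knockout CMPs, 0 for GMPs, 0 to 3 for the leukaemic genotypes and 0 to 4 for the interaction. They numbered 8 to 18 and 10 to 21 for control and knockout L-GMPs against GMPs, and 5 to 22 and 5 to 26 against MLL-AF9 progenitors. They numbered 1 to 4 for MLL-AF9 in CMPs, 5 to 23 for MLL-AF9 CMPs against KSLs and 2 to 8 for secondary L-GMPs.

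With array weights, calls were 20 for knockout CMPs, 1 for GMPs, and 19 and 35 for control and knockout L-GMPs against GMPs. They were 1 and 7 for control and knockout L-GMPs against MLL-AF9 progenitors and 2 for the interaction. The comparisons among MLL-AF9 CMPs, KSLs and secondary L-GMPs gave 0. With the compared groups alone calls were 21, 3, 13, 22, 0, 0 and 3 in the same order. That fit gave 0 for secondary L-GMPs and for CMPs set against KSLs. The knockout leukaemia as 1 sample gave 4 calls against GMPs and 2 against MLL-AF9 progenitors. Leaving out dim genes gave 1 interaction call. The mouse as a replicate block gave 13 for MLL-AF9 CMPs against KSLs. The replicate number as a block gave 1 for MLL-AF9 in CMPs, where samples share only a number. Same-numbered untransplanted samples had deviations correlated at -0.20 to 0.15.

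Other settings were chosen after seeing the data. Primary L-GMPs alone gave 1 call between genotypes, 8 and 2 for control and knockout L-GMPs against GMPs, and 4 and 1 against MLL-AF9 progenitors. Secondary L-GMPs alone gave 11 and 19 against MLL-AF9 progenitors and 1 for the interaction. MLL-AF9 CMPs alone gave 20 and 21. KSLs alone gave 1, in the opposite direction, and 3. The median change of secondary against primary L-GMPs, -0.07 with all arrays, lay between -0.23 and 0.09 without 1 array, and was 0.06 without primary array 1. The median for MLL-AF9 CMPs against KSLs was 0.05 without KSL array 1. Why these values shift was not tested.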
